A study of Homo sapiens with 36 samples.

Results

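The 59 genes described here encode subunits of mitochondrial respiratory complexes I to IV that are carried by the nuclear genome. They were taken from the count tables by gene symbol, through the Ensembl gene identifiers, and all 59 were found among 57500 genes. No measured value entered that look-up, but the list was chosen with earlier results of these data known. Complex I contributed 36 subunits, of which 6 were core and 30 accessory, complex II 4, complex III 9 and complex IV 10. The question was whether these nuclear subunits move with the 13 respiratory-chain and ATP synthase proteins that the mitochondrial genome encodes.

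RNA was sequenced from THP-1 cells, an established human monocytic leukaemia line, that carried, from lentiviral transduction, a non-target short hairpin RNA (shNT) or one against NR4A2 (shNR4A2) or NR4A3 (shNR4A3). Cells of each line were kept in buffered medium at 5% or 10% CO2 for 4 h, and LPS at 2.5 µg/mL was present for the last 2 h in one set of dishes while the basal set received none. Each of the 12 conditions had 3 replicates, giving 36 polyA-selected libraries. All 3 lines carried a hairpin, and each knockdown was 1 line set against 1 control line, so an effect of the knockdown and another difference between the lines cannot be told apart. The study's figure legends give n = 3 individual experiments, and the sources do not say how the cultures were kept apart. The p-values measure the spread between these samples, part of which may be technical.

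Totals were 16171161 to 23929138 counts per library, and the 59 subunits took 0.493% to 0.574% of them. NR4A2 in the shNR4A2 line stood at 32.2% to 53% of its shNT mean in the matched treatment, and NR4A3 in the shNR4A3 line at 16.9% to 78%. Both ends of the NR4A3 range were basal ratios at levels under 1 TPM. With LPS, NR4A3 in that line stood at 54.5% (5% CO2) and 47.3% (10% CO2). All 10 monocyte and THP-1 markers had a mean of at least 1 TPM. In bulk RNA, a lower share of cells that express a gene and less RNA per cell cannot be told apart.

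The respiratory chain moves electrons from NADH, through complex I, or from succinate, through complex II, to ubiquinone, then through complex III to cytochrome c and through complex IV to oxygen. Complexes I, III and IV pump protons and are built from subunits of both genomes, whereas complex II is wholly nuclear-encoded. The nuclear genes are scattered over the chromosomes and transcribed in the nucleus, while the mitochondrial genes are read from long polycistronic transcripts by a separate polymerase.

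The promoters of 5 subunits that the results turn on are shown first, as the 250 bases before the transcript start in the RefSeq tables for GRCh38.p14, each read in the direction of the gene. NDUFV2 and COX6A1 had the greatest LPS differences of complexes I and IV, NDUFA8 and NDUFAB1 rose at 10% CO2, and COX7C differed between lines. Capitals mark exact matches to GCGCANGCG (NRF1), CCGGAAGT (GABPA and ETS), AAGATGGC (YY1), GGGCGG (SP1), CCAAT and AAAGGTCA (an NR4A monomer element), searched on both strands. The stretches are chr18:9102449-9102698 on the plus strand, chr12:120437863-120438112 on the plus strand, chr9:122159780-122160029 on the minus strand, chr16:23596317-23596566 on the minus strand and chr5:86617691-86617940 on the plus strand.
NDUFV2: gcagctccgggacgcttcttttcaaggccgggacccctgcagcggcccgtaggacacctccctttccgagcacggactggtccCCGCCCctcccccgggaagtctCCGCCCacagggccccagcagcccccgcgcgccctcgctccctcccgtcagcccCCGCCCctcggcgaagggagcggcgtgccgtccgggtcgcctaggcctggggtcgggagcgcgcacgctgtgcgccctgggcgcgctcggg
COX6A1: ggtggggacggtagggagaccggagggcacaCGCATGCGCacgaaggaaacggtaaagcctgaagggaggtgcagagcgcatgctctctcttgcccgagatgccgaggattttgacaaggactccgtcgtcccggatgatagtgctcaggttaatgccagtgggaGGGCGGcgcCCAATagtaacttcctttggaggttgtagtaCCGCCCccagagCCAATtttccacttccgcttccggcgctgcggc
NDUFA8: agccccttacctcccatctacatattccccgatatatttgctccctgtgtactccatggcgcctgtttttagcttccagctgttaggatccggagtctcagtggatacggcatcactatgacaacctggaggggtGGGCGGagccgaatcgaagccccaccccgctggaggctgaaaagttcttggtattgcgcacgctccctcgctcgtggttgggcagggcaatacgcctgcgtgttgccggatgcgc
NDUFAB1: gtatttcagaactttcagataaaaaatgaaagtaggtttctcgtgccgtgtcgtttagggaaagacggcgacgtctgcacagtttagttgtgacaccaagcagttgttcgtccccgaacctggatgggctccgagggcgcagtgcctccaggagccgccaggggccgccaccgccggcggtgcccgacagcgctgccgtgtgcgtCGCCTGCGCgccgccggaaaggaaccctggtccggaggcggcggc
COX7C: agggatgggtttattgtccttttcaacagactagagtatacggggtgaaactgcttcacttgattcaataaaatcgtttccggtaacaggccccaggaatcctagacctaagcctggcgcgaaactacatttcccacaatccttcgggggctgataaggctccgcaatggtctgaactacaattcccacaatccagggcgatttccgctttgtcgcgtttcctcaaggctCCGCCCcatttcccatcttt

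A promoter window of 300 bases, from 250 before to 50 after the start, was held for 51 of the 59 subunits and for 27305 promoters in all. The NRF1 motif, bound by the nuclear respiratory factor of that name, occurred in 16 of the 51 (31.4%) and in 8.05% of all promoters. The GABPA and ETS motif occurred in 8 (15.7%) against 4.44%, and the YY1 motif in 8 (15.7%) against 3.03%. The NR4A element occurred in 1, NDUFS7 (1.96%), against 1.21%, and CCAAT in 29.4% against 35.7%. SP1 matches were common, in 30 of the 51 (58.8%) and in 44.6% of all promoters. In the sequences shown, the NRF1 motif of COX6A1 began 219 bases and that of NDUFAB1 45 bases before the start, that of NDUFA8 lay past the start and outside its sequence, and NDUFV2, NDUFA8 and COX7C had SP1 matches alone within the stretch shown. These are letter matches and were not tested as binding sites.

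Levels were compared between genes as TPM, in which counts are divided by the exon length in the files and scaled to the same total in each library. Subunit means over 36 libraries ran from 4.21 TPM for NDUFA9, an accessory subunit of complex I, to 1015 TPM for COX8A, a small subunit of complex IV, with a median of 109 TPM, and 31 of 59 reached 100 TPM. Complex I spanned 4.21 TPM to 642 TPM (NDUFS5). Complex II, the succinate dehydrogenase, spanned 19.4 TPM (SDHC) to 107 TPM (SDHD), with the flavoprotein SDHA at 94.5 TPM and the iron-sulfur subunit SDHB at 72.8 TPM. Complex III spanned 73.2 TPM (UQCRB) to 856 TPM (UQCRH), and complex IV 54 TPM (COX7B) to 1015 TPM. In TPM, subunits that must assemble into 1 enzyme differed widely within each complex, but the exon lengths in the files enter these values. SDHC and SDHD had median counts of 1530 and 1497.5 per library, over exon lengths of 14160 and 2509 bases. How far these lengths exceed those of the transcripts present was not tested.

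**Figure D1:**
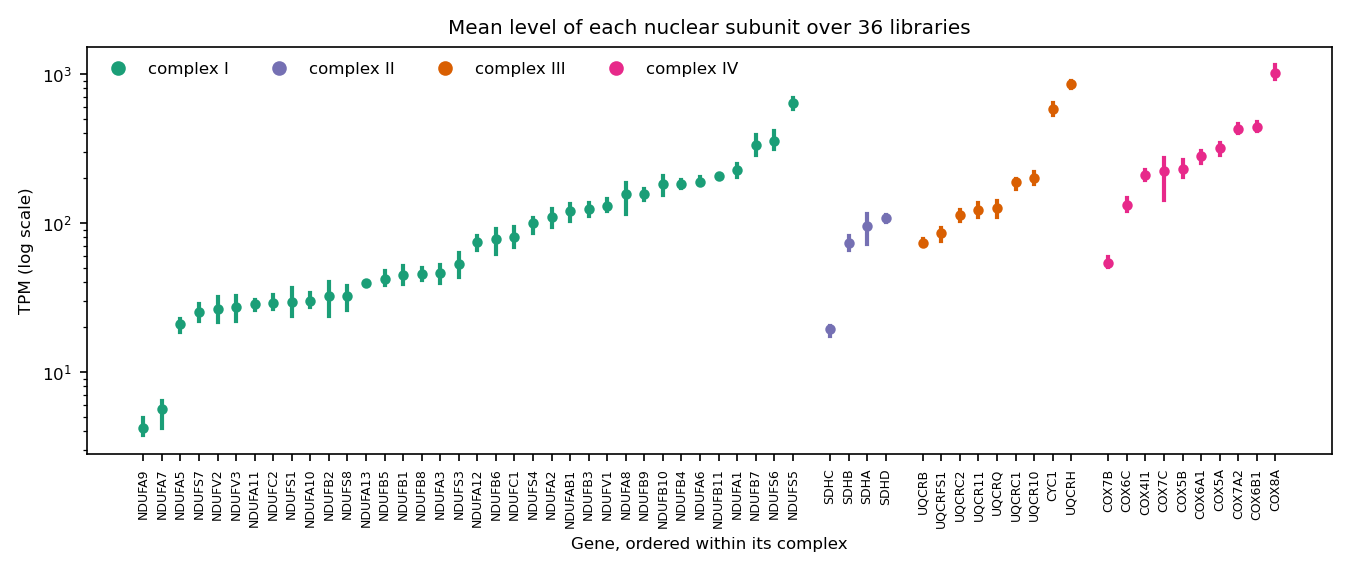
Mean level of each of the 59 subunits over 36 libraries, in TPM on a log axis, coloured by complex, with bars from the lowest to the highest condition mean. The points run from 4.21 TPM (NDUFA9) to 1015 TPM (COX8A), and most bars are short beside the differences between genes.

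Among the subunits on the electron path, NDUFV1, the NADH-binding core subunit, averaged 129 ± 11.3 TPM (SD, n = 36), and NDUFS1, an iron-sulfur core subunit, 29.4 ± 4.19 TPM. In complex III the Rieske protein UQCRFS1 averaged 85.2 ± 5.69 TPM, cytochrome c1 (CYC1) 585 ± 43.7 TPM and the core protein UQCRC1 189 ± 10.9 TPM. In complex IV the nuclear subunits COX4I1, COX5A and COX5B averaged 210 ± 13.3, 317 ± 20.9 and 231 ± 26.9 TPM. Across the 12 condition means, the ratio of the highest to the lowest was 1.2 for NDUFV1 and 1.55 for NDUFS1.

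The nuclear subunits spanned a narrower range across conditions than the mitochondrially encoded genes. The highest condition mean exceeded the lowest by a median of 1.23-fold over the 59 subunits and by 1.9-fold over the 13 mitochondrial genes. At least 1.5-fold was reached by 6 of the 59, which were COX7C (1.89), NDUFB2 (1.67), NDUFA8 (1.62), SDHA (1.6), NDUFS1 (1.55) and NDUFA7 (1.51), and by 11 of the 13. NDUFA7 had the lowest count of the 59, at 24, with a median of 42.5 per library. It shares 33.5% of its exon bases with other annotated genes. Summed over the 59, libraries ran from 9175 to 10985 TPM (1.2-fold), while the 13 mitochondrial genes ran from 48282 to 156657 TPM (3.24-fold).

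For comparisons between conditions, levels are given as TMM CPM, counts scaled by library total and edgeR's TMM factors with no division by length. On that scale the 59 summed to 4682 to 6140 (1.31-fold) and the 13 to 9773 to 44792 (4.58-fold). In basal shNT cells the 3 libraries at 5% CO2 held sums of 4858, 4987 and 4682 for the nuclear subunits and those at 10% held 4756, 5275 and 5302, so the groups overlapped. The same libraries held 13532, 18146 and 11658 at 5% and 28310, 26794 and 18325 at 10% for the mitochondrial genes, without overlap on this scale but with overlap in TPM.

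**Figure D2:**
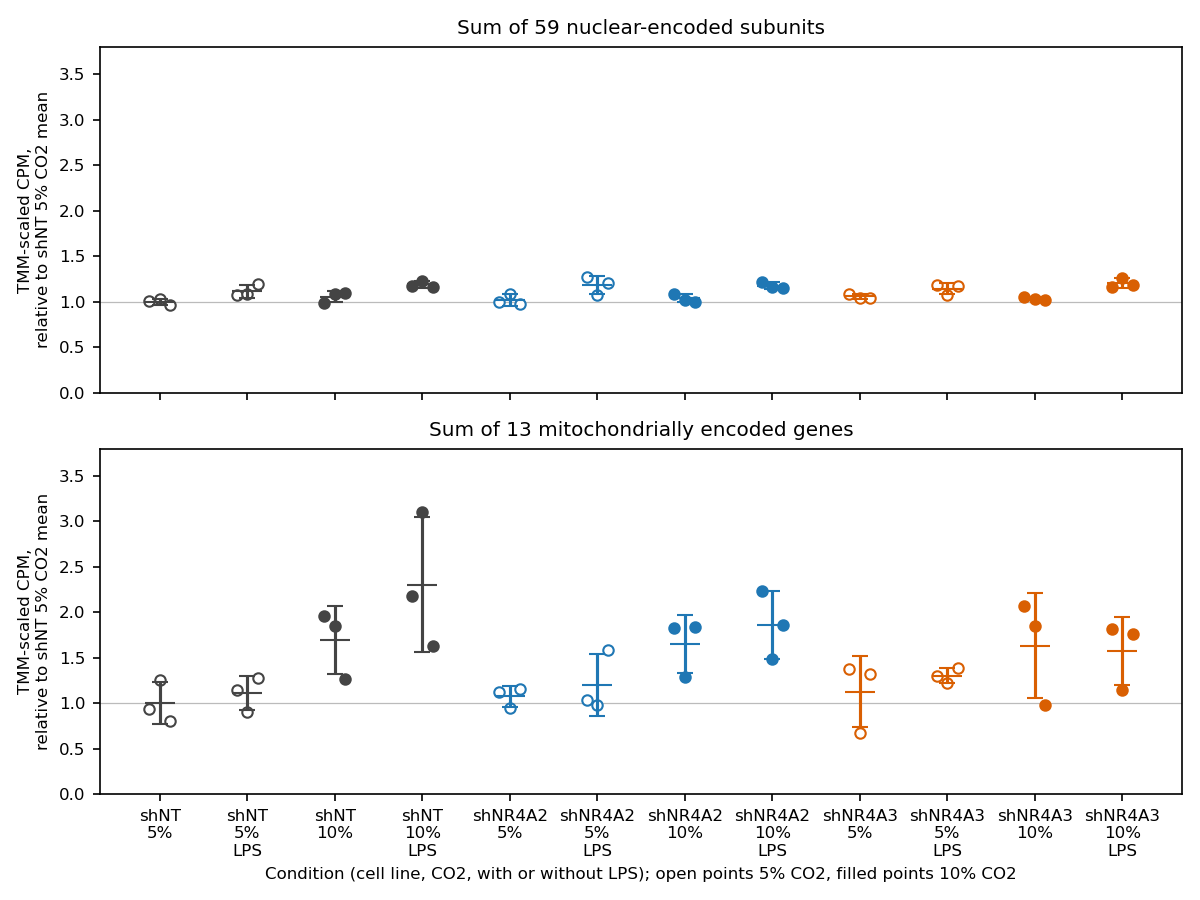
Summed TMM CPM of the 59 nuclear subunits (top) and the 13 mitochondrially encoded genes (bottom) in each library, relative to the mean of shNT cells at 5% CO2, with condition mean and SD (n = 3). The nuclear condition means lie between 4843 and 5826 TMM CPM and are higher with LPS on this scale (lower in TPM), whereas the mitochondrial means are higher at 10% CO2 (filled points) and spread widely within conditions.

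The first comparison asked whether 10% against 5% CO2 changed the subunits. Averaged over the 6 combinations of line and LPS, 14 of the 59 were higher and 1, SDHA, was lower at an adjusted p under 0.05 in edgeR's quasi-likelihood test (called). Of all 17720 genes tested, 36.4% were called in that comparison, 17% higher and 19.4% lower, so that the subunits' shares were 23.7% higher and 1.69% lower. The changes were small: the subunits' median log2 fold change was 0.055, against -0.0042 for all genes and 0.62 for the mitochondrial genes, of which 12 of 13 were higher. MT-ND4, MT-ND4L and MT-CO1 rose most, by log2 fold changes of 0.86, 0.84 and 0.79.

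Complex I, which supplied 36 of the 59 subunits, held 8 of the 14 higher ones. All 8 were among its 30 accessory subunits, and none of its 6 core subunits was called. A difference between core and accessory subunits was not tested. NDUFA8, an accessory subunit of the intermembrane-space side (chr9:122144058-122159819, GRCh38), had 27.8 TMM CPM in its lowest, 33.7 in its median and 40.4 in its highest library of the 18 at 5% CO2. At 10% the lowest, median and highest were 36.6, 39.9 and 45. The ranges overlapped, but the mean at 10% was above that at 5% in 6 of 6 states, with a log2 fold change of 0.23 (SE 0.041, adjusted p = 5.14e-05, edgeR). In basal shNT cells its libraries held 32.3, 34.4 and 36.2 at 5% and 39.8, 43.1 and 38.5 at 10%, with no overlap.

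NDUFAB1, the mitochondrial acyl carrier protein, ran from 41.2 to 57.4 TMM CPM (median 50) at 5% and from 49.3 to 67 (median 58.9) at 10%. It was higher in 6 of 6 states, by 0.21 on the log2 scale (SE 0.040, adjusted p = 8.72e-05, edgeR). NDUFB2, an accessory subunit of the membrane arm, rose by 0.21 (SE 0.041, adjusted p = 0.000122, edgeR), also in 6 of 6 states, from a median of 37.8 to 43 TMM CPM. NDUFB6, another membrane-arm subunit, rose by 0.20 (SE 0.044, adjusted p = 0.000635, edgeR). The other complex I subunits called higher were NDUFB5, NDUFA9, NDUFA12 and NDUFS6, at 0.14 to 0.18.

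In complex II, SDHA, the flavoprotein that oxidises succinate, ran from 212 to 261 TMM CPM (median 228) at 5% and from 179 to 254 (median 215) at 10%. It was lower in 6 of 6 states, by a log2 fold change of -0.11 (SE 0.028, adjusted p = 0.00209, edgeR), while the membrane anchors SDHC and SDHD rose by 0.076 and 0.11, and SDHB, at 0.065, was not called. The calls of SDHC and SDHD were lost without 2 and 5 of the 36 libraries taken singly. Subunits of the same 4-protein enzyme thus differed in sign. Transcripts of SDHA pseudogenes stood at 35.9% of the SDHA level. In TMM CPM, SDHAP1, SDHAP3 and SDHAP4 had mean log2 ratios of 0.034, 0.055 and 0.23 at 10% against 5% CO2. Their ratios were above 0 in 3, 3 and 5 of 6 states. How reads were shared between SDHA and its pseudogenes was not tested.

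In complex III, UQCRQ, a small accessory subunit with 20.8% of its exon bases shared with an antisense gene, ran from 41.7 to 62.6 TMM CPM (median 46.9) at 5% and from 45.7 to 68.1 (median 57.7) at 10%. It rose by 0.20 (SE 0.046, adjusted p = 0.00105, edgeR) and UQCR11 by 0.12, and the other 7 subunits were not called. In complex IV, COX6A1 and COX7A2 rose by 0.094 and 0.097, and the other 8 were not called. The log2 fold changes of complexes III and IV that were not called lay between -0.043 and 0.09.

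**Figure D3:**
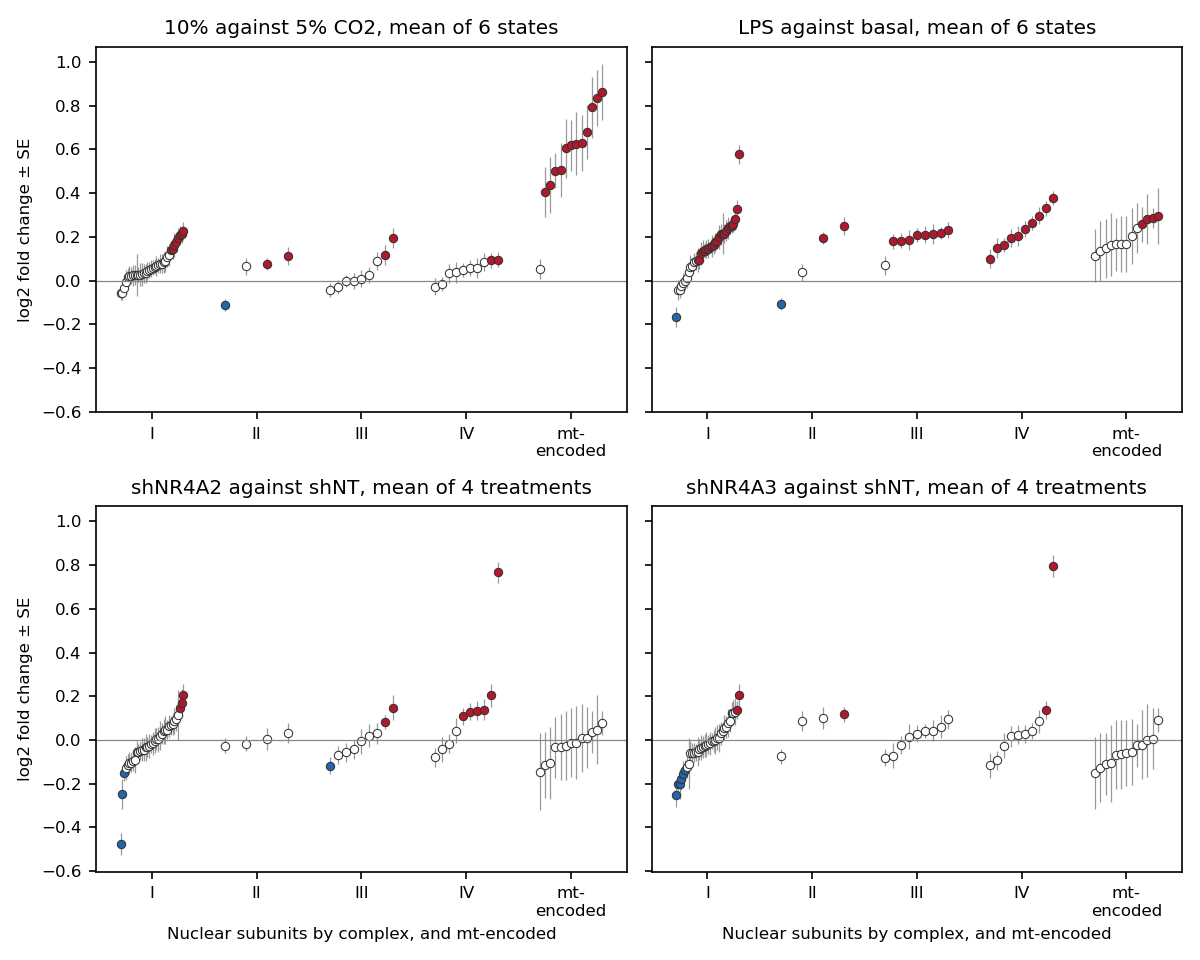
Log2 fold change ± SE of each nuclear subunit, by complex, and of each mitochondrially encoded gene in 4 averaged comparisons; filled points passed an adjusted p under 0.05 (red higher, blue lower) and open points did not. At 10% CO2 the mitochondrial genes lie near 0.62 while the nuclear subunits lie near 0.055, and COX7C stands alone near 0.8 in both line comparisons.

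Within single states the subunits were rarely called. In shNT cells with LPS 3 were higher, UQCRQ by 0.40 (SE 0.097, adjusted p = 0.0252, edgeR), NDUFAB1 by 0.35 (adjusted p = 0.0469) and NDUFB2 by 0.35 (adjusted p = 0.0379), where 8.19% of all genes were called and 4.47% were called higher. UQCRQ held 46.3, 46.6 and 58.2 TMM CPM in the 3 libraries at 5% and 64.2, 68.1 and 66.6 at 10%, and NDUFAB1 held 45.1, 45.7 and 57.4 against 61.1, 65.3 and 61.8. In both genes replicate 3 at 5% was the nearest to the 10% libraries. The count of 3 fell to 0 without replicate 1 or 2 at 5% CO2 with LPS or replicate 2 or 3 at 10% CO2 with LPS, to 1 without replicate 1 at 10%, and rose to 10 without replicate 3 at 5%. In the other 5 states, edgeR and DESeq2 both called 0 of the 59, with 0.615% (basal shNT), 0.0113% (basal shNR4A2), 0.198% (shNR4A2 with LPS), 1.13% (basal shNR4A3) and 2.13% (shNR4A3 with LPS) of all genes called by edgeR. At an unadjusted p under 0.05 these states held 5, 0, 1, 3 and 7 subunits, where 14.9%, 8.07%, 16.3%, 16.7% and 19.1% of all genes passed.

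The median log2 fold change of the subunits and of the mitochondrial genes ran side by side as follows. It was 0.12 and 0.69 in basal shNT cells, 0.12 and 1.07 in shNT cells with LPS, 0.043 and 0.57 in basal shNR4A2 cells and 0.011 and 0.54 in shNR4A2 cells with LPS. In shNR4A3 cells it was -0.0015 and 0.53 in the basal state and 0.093 and 0.25 with LPS. The mitochondrial genes were thus the higher in each of the 6 states. Gene by gene, 17 of 59 subunits were above 0 in all 6 states and 1 below, against 12 and 0 of the 13 mitochondrial genes. The same count was not made over all genes.

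Counting genes whose 3 libraries at 10% CO2 all lay above the 3 at 5% uses no model. In shNT cells 10 of 59 subunits did so in the basal state and 15 with LPS, beside 10.2% and 15.3% of all genes. In shNR4A2 cells 4 and 5 did so, beside 6.41% and 10.8%, and in shNR4A3 cells 1 and 13, beside 11.1% and 12%. All 3 libraries lay below in 0 and 0 subunits in shNT cells (9.67% and 14.5% of all genes), 0 and 3 in shNR4A2 cells (7.35% and 10.6%) and 6 and 1 in shNR4A3 cells (11.1% and 13.1%). In basal shNR4A3 cells the 6 below were 10.2% of the subunits, near the share of all genes, and the 1 above was 1.69%. Of the 13 mitochondrial genes 7 and 12 were separated in shNT cells, 6 and 2 in shNR4A2 cells and 0 and 1 in shNR4A3 cells.

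**Figure D4:**
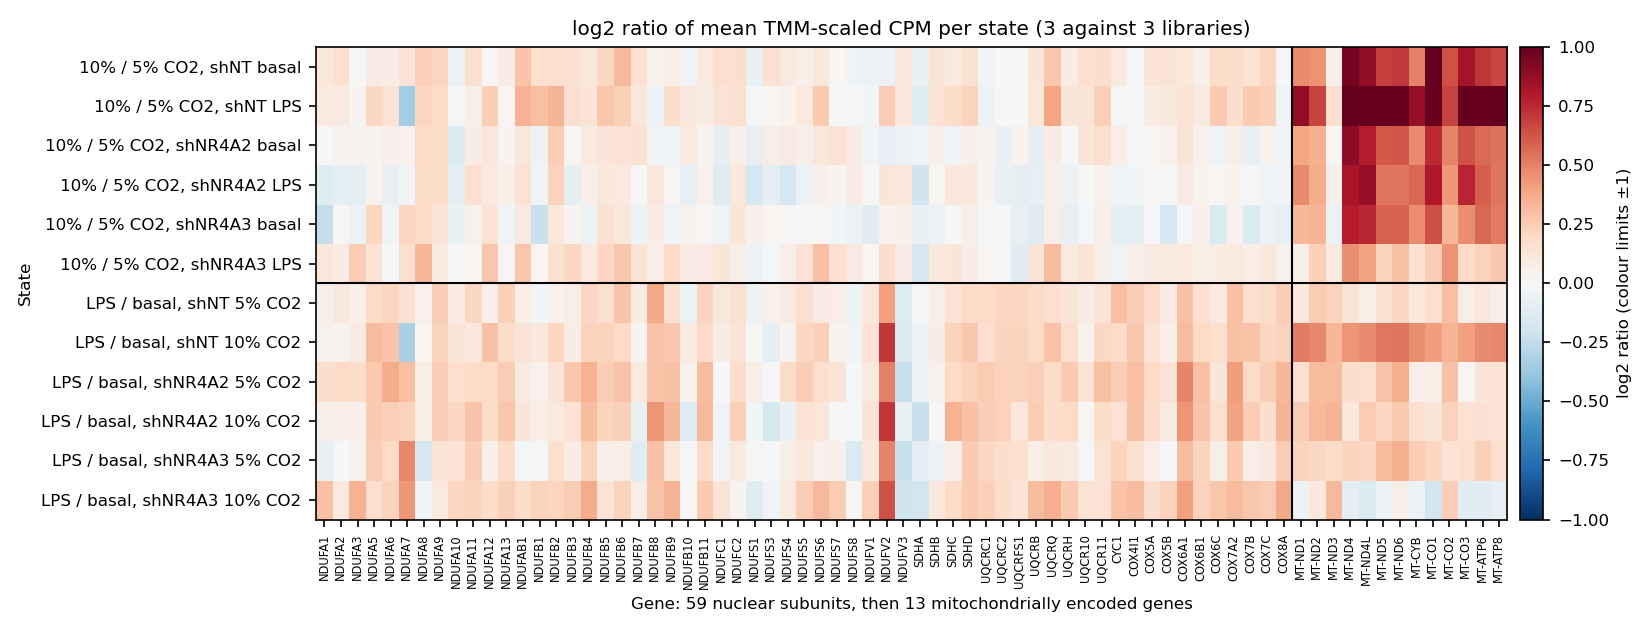
Log2 ratio of mean TMM CPM for each gene (columns: 59 nuclear subunits, then 13 mitochondrially encoded genes) in 6 comparisons of 10% with 5% CO2 (upper rows) and 6 of LPS with basal (lower rows), 3 libraries against 3. In the upper rows the strong red is in the mitochondrial columns, and in the lower rows NDUFV2 is the darkest nuclear column.

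The second comparison asked what LPS did to the same genes. Averaged over 6 states, 43 subunits were higher and 2 lower by edgeR, with 64.6% of all genes called, 30.5% higher and 34.1% lower, and the subunits' shares were 72.9% and 3.39%. Their median log2 fold change was 0.18, against -0.011 for all genes and 0.17 for the mitochondrial genes, of which 4 of 13 were called higher. With scaling by library size alone the subunits' split turned to 4 higher and 18 lower and their median to -0.031, while the median of all genes fell to -0.22. Under DESeq2, 45 subunits were higher and 2 lower, with a median of 0.20 over the subunits and 0.23 over every gene with a count. The shares of all genes called with library size alone and under DESeq2 are not given here.

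All 10 nuclear subunits of complex IV and 8 of the 9 of complex III were called higher with TMM scaling, as were 21 of the 30 accessory and 2 of the 6 core subunits of complex I and 2 of the 4 of complex II. With library size alone the 4 called higher were NDUFV2, NDUFB8, COX6A1 and COX7A2.

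NDUFV2, the core subunit that carries an iron-sulfur cluster next to the NADH site (chr18:9102630-9134345, GRCh38), moved most. In 18 basal libraries it ran from 12.8 to 18.6 TMM CPM (median 16.7) and in 18 with LPS from 20.2 to 29.8 (median 24.5). The groups did not overlap, and the log2 fold change was 0.58 (SE 0.043, adjusted p = 4.29e-14, edgeR), in 6 of 6 states. It stayed higher with library size alone, at 0.37.

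In shNT cells at 5% CO2, NDUFV2 held 17.2, 17.2 and 18.1 TMM CPM basally and 22.3, 23.05 and 24.4 with LPS. At 10% CO2 it held 17.4, 17.1 and 16.1 basally and 27.3, 28.3 and 27.5 with LPS. Every LPS library was above every basal one at both CO2 levels. The pseudogene NDUFV2P1, whose level in TPM was 37.6% of that of NDUFV2, moved the same way, with a mean log2 ratio of 0.50 in TMM CPM over 6 of 6 states, and 28.4% of the exon bases of NDUFV2 are shared with another annotated gene. How far shared reads enter either value was not tested.

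**Figure D5:**
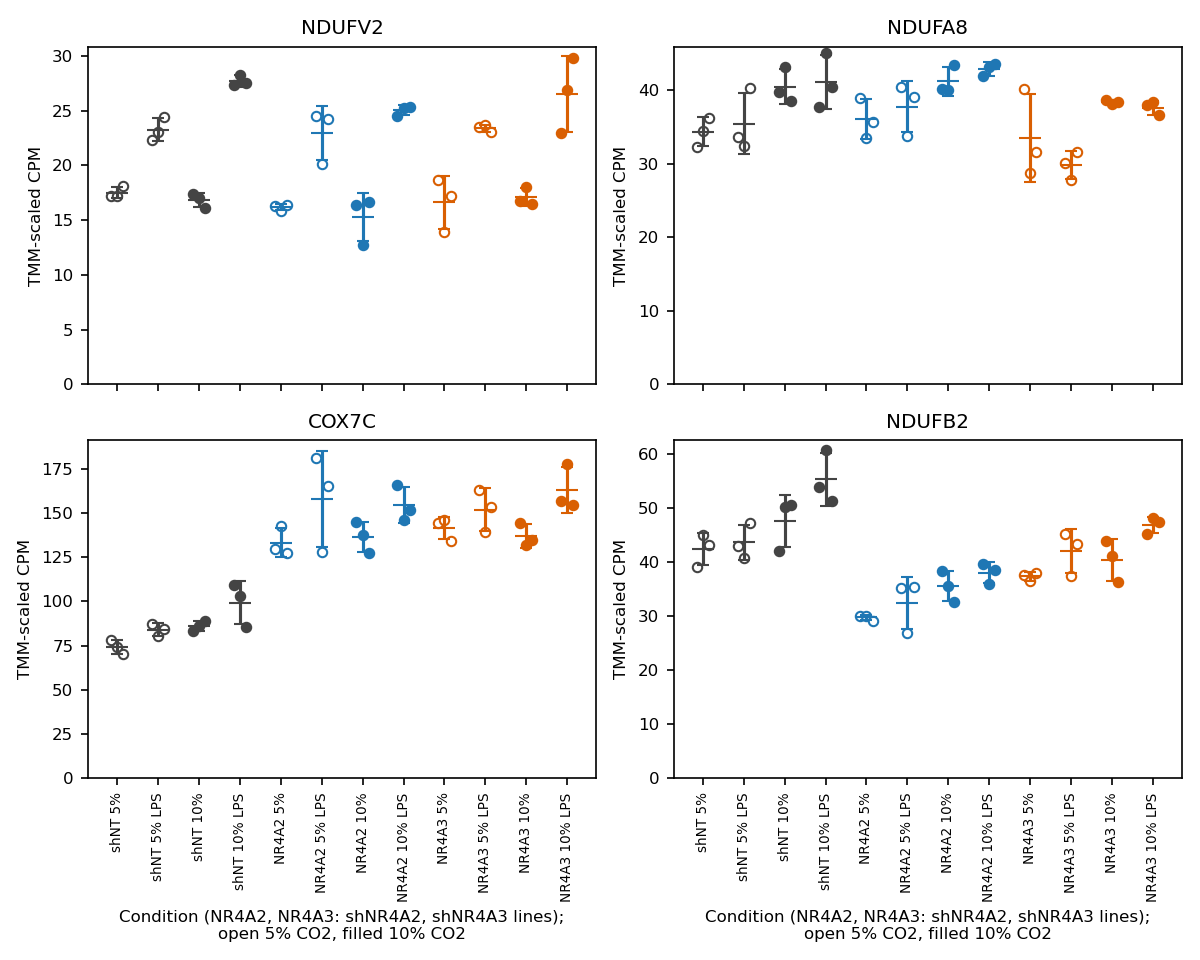
TMM CPM of NDUFV2, NDUFA8, COX7C and NDUFB2 in each library by condition (open points 5% CO2, filled points 10% CO2), with mean and SD (n = 3) and the axis from 0. NDUFV2 steps up with LPS in each line, NDUFA8 is higher at 10% CO2, and COX7C is lower in all 12 shNT libraries than in the other 24.

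Among the complex IV subunits, COX6A1 ran from 81 to 106.3 TMM CPM (median 94.9) basally and from 106.5 to 134 (median 126) with LPS, a log2 fold change of 0.38 (SE 0.034, adjusted p = 6.79e-12, edgeR). The ranges met without overlapping. COX7A2 rose by 0.33 (SE 0.035, adjusted p = 3.8e-10, edgeR), from a median of 203 to 260 TMM CPM, and COX8A by 0.30. The calls of COX6A1 and COX7A2 held with library size alone, at 0.17 and 0.12, whereas COX8A at 0.086 and COX4I1 at 0.053 were then no longer called.

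NDUFB8, an accessory subunit of complex I, rose by 0.33 (SE 0.042, adjusted p = 2.59e-08, edgeR), from a median of 22.9 to 28.7 TMM CPM. It shares 48.5% of its exon bases with other annotated genes. NDUFV3, the accessory subunit beside NDUFV1 and NDUFV2, had a log2 fold change of -0.17 with LPS (SE 0.045, adjusted p = 0.00148, edgeR), and SDHA one of -0.11 (adjusted p = 0.00132), both in 6 of 6 states. With library size alone these were -0.38 and -0.32. The 3 subunits around the NADH site therefore differed, since NDUFV1 was called at 0.14, NDUFV2 at 0.58 and NDUFV3 at -0.17, and NDUFV1 turned to -0.073 with library size alone.

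In complex III the 8 subunits called higher with TMM scaling lay between 0.18 and 0.23, and UQCR10, at 0.071, was not called. UQCRC1, UQCRC2 and CYC1 rose by 0.22, 0.21 and 0.23, and UQCRFS1 by 0.18, although with library size alone UQCRC1 and CYC1 lay at 0.0052 and 0.022, uncalled, and UQCRFS1 turned to -0.031. SDHC and SDHD rose by 0.20 and 0.25, and with library size alone SDHC turned to -0.016 and SDHD lay at 0.039, uncalled. COX5A and COX5B, called at 0.16 and 0.10, turned to -0.050 and -0.11, and NDUFAB1, called at 0.09, turned to -0.12. The calls of COX5B and NDUFAB1 were also lost without 17 and 14 of the 36 libraries taken singly.

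Of the 59 subunits, those whose 3 LPS libraries all lay above the 3 basal ones in TMM CPM numbered 22 and 28 in shNT cells at 5% and 10% CO2, beside 18.3% and 21.3% of all genes. They numbered 17 and 25 in shNR4A2 cells, beside 16.8% and 22%, and 18 and 35 in shNR4A3 cells, beside 19.4% and 24.5%. Those with all 3 below numbered 0 and 0 in shNT cells (19.4% and 23.2% of all genes), 0 and 3 in shNR4A2 cells (17.8% and 25.1%) and 1 and 3 in shNR4A3 cells (21.3% and 27.5%). Over the 6 states 42 subunits had a mean ratio in TMM CPM above 0 in all 6 and 3 below 0 in all 6, a count not made over all genes.

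The direction of the summed level also depended on the scale. In TMM CPM the nuclear sum was higher with LPS in 6 of 6 states, by a mean log2 ratio of 0.18, whereas in TPM it was lower in 6 of 6, with a mean of -0.060. For the mitochondrial genes the corresponding means were 0.18 and -0.064. At 10% against 5% CO2 the nuclear sum gave 0.038 in TMM CPM and -0.013 in TPM, while the mitochondrial sum gave 0.64 and 0.54.

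The third set of comparisons set each knockdown line against shNT over 4 treatments, and both use the same 12 shNT libraries. In shNR4A2 cells 11 subunits were higher and 4 lower by edgeR, with 40.9% of all genes called (20.2% higher and 20.7% lower), and in shNR4A3 cells 5 were higher and 6 lower, with 32.9% (16% and 16.9%). With library size only the shNR4A3 split was 4 higher and 11 lower, a count given without the share of all genes. No mitochondrially encoded gene was called in either line. The subunits' medians were -0.0033 and -0.0014. Of the 10 monocyte markers 5 were higher in shNR4A2 cells (median 0.28) and 6 higher and 1 lower in shNR4A3 cells (median 0.58), and their part in the subunit values was not tested.

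COX7C, a small subunit of complex IV (chr5:86617904-86620962, GRCh38), differed most. In the 12 shNT libraries it ran from 70 to 109 TMM CPM (median 85.2), in the 12 shNR4A2 libraries from 127 to 181 (median 144) and in the 12 shNR4A3 libraries from 132 to 178 (median 145). Every shNT library lay below every library of the other lines. The log2 fold changes were 0.77 (SE 0.049, adjusted p = 9.26e-15, edgeR) in shNR4A2 and 0.80 (SE 0.049, adjusted p = 4.64e-15) in shNR4A3.

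NDUFB2 went the other way. It ran from 39 to 60.7 TMM CPM (median 46) in shNT, from 26.9 to 39.6 (median 35.2) in shNR4A2 and from 36.2 to 48 (median 42.1) in shNR4A3. The log2 fold changes were -0.48 (SE 0.050, adjusted p = 2.01e-09, edgeR) in shNR4A2 and -0.18 (adjusted p = 0.00624) in shNR4A3. It shares 35.9% of its exon bases with other annotated genes, whereas none were found for COX7C.

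Also lower were NDUFA9 (-0.25 in shNR4A2 and -0.20 in shNR4A3) and the core subunit NDUFS1 (-0.15 and -0.20). Further, in shNR4A2 cells UQCRC2 was called lower, at -0.12, and NDUFA2, COX5B, NDUFA3 and UQCR11 higher, at 0.21, 0.20, 0.17 and 0.15, and the calls of NDUFA3 and UQCR11 were each lost without 8 of the 36 libraries taken singly. In shNR4A3 cells NDUFB6 and NDUFA5 were called lower, at -0.25 and -0.16, and NDUFS6, NDUFA6 and SDHA higher, at 0.21, 0.14 and 0.12. The calls of NDUFA5 and NDUFA9 in that line were lost without 15 and 4 of the 36 libraries taken singly, and that of SDHA with library size alone (0.089). COX5A was called higher in both, at 0.13 and 0.14. Whether the lines differed from each other at these genes was not tested.

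Differences of response were tested as interactions. None of the 59 was called by edgeR or DESeq2 for a difference of the CO2 response between basal cells and cells with LPS (1.99% of all genes called by edgeR), or between shNR4A2 or shNR4A3 and shNT (0% in each). None was called for a difference of the LPS response in shNR4A2 (0.237%) or shNR4A3 (0.378%) against shNT. At an unadjusted p under 0.05 the counts were 2, 7, 4, 0 and 1, where 14.2%, 2.87%, 2.38%, 5.26% and 9.46% of all genes passed. The subunits' median difference of CO2 response against shNT was -0.085 in shNR4A2 and -0.077 in shNR4A3, and the same medians of the mitochondrial genes were -0.27 and -0.49.

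Neighbouring gene lists give the context. Of 17 ATP synthase genes, 5 were called higher and none lower at 10% CO2 (median 0.065) with ATP5MK, ATP5MC1 and ATP5MC3 at 0.13, 0.11 and 0.093. With LPS 13 were higher and none lower (median 0.13), a direction that turned to 0 higher and 8 lower (median -0.085) with library size alone. With LPS the mitochondrial MT-ND6, MT-ND3 and MT-ND2 had the greatest called changes of that genome, at 0.30, 0.29 and 0.28, and with library size alone these were 0.083, 0.076 and 0.070 and none of the 13 was called. The isoform COX7A2L, linked to supercomplexes, was called at 0.12 with CO2 and 0.25 with LPS, the second no longer with library size alone (0.035). Of 45 assembly factors tested, 19 were higher and 1 lower at 10% CO2 (median 0.10), led by COA7, CMC1 and NDUFAF4 at 0.38, 0.36 and 0.35, and COX19 was the lower one at -0.13. With LPS 12 were higher and 15 lower, from NDUFAF6, NDUFAF3 and COX17 at 0.66, 0.35 and 0.32 to SDHAF1, PET117 and COA7 at -0.93, -0.85 and -0.69. With library size alone 3 were higher and 33 lower, at a median of -0.22, near the median of all genes given above for that setting. The shares of all genes called with library size alone are not given here, for the assembly factors or the other lists. COA7, a complex IV assembly factor, was higher at 10% CO2 and lower with LPS under both scalings, at 0.37 and -0.90 with library size alone.

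Of 7 regulators of nuclear respiratory genes tested, YY1 and NRF1 were lower at 10% CO2, at -0.20 and -0.18, and none was higher. With LPS the coactivator PPARGC1B fell by 1.61 on the log2 scale, ESRRA by 0.42 and YY1 by 0.29, while GABPB1 and GABPA were higher at 0.37 and 0.14, although GABPA turned to -0.068 with library size alone. Of 14 subunits called higher at 10% CO2, 12 had a promoter window and 8 of these held the NRF1 motif, against 16 of all 51. The SP1, GABPA and ETS, CCAAT, YY1 and NR4A motifs occurred in 5, 3, 2, 1 and 0 of the 12. Among all 51 they occurred in 30, 8, 15, 8 and 1. Of 35 called higher with LPS that had a window, 12 held NRF1, and 19, 7, 10, 5 and 0 held the others in that order. A link between a motif and the calls was not tested.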

How the data were processed

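The deposited values are whole-number counts per gene, 1 file per library, without normalization. Per the submitters' processing notes and the study's methods, the authors used Trimmomatic 0.36 for trimming, STAR 2.5.2b for alignment against GRCh38 and featureCounts from Subread 1.5.2 for the counts. The annotation release and strand setting are not given in the sources used here, so overlapping and antisense genes cannot be told apart: 29 subunits share exon bases with another annotated gene (21 over 10% of them) and 36 have a pseudogene of their name. Identifiers were matched to symbols for 56410 genes (98.1%).

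Genes passing filterByExpr (minimum count 10, minimum total 15) over 36 libraries numbered 17720 and included all 59 subunits, whose lowest count was 24. TMM scaling and edgeR's quasi-likelihood test (edgeR 4.0.16, R 4.3.3, robust) were used with Benjamini-Hochberg adjustment over all genes tested and a threshold of 0.05. CO2 comparisons within a state used their 6 libraries, and averaged and interaction contrasts used 1 mean per condition over 36. The study's methods name DESeq2, which was an alternative here (DESeq2 1.42.0). TPM used the gene lengths in the files. Replicates differed beyond sampling noise (chi-square per degree of freedom 5.98 to 26.2). Alternatives were RLE factors, library size only, TMM without mitochondrial genes, no filter, a replicate block, an adjusted p under 0.01, 1 fit to all libraries and each library left out. Same-numbered replicates correlated above 0.1 in all 3 pairs in basal shNR4A2 cells (0.609, 0.461 and 0.475), and in no other CO2 comparison. Replicate 1 alone correlated at 0.457 to 0.626 in every CO2 comparison. Over all conditions 65 pairs of replicate 1 libraries were above 0.1 (lowest 0.0196), against 43 of replicate 2 and 38 of replicate 3. The main tests used no block, and whether replicate 1 shared a batch was not tested. The fits were tested on simulated data. Subunits named in the text were the electron-path and central subunits, the highest and lowest of each complex, the 5 called with the greatest change each way in averaged comparisons and the 3 in single states. NDUFA7, NDUFB5, NDUFA12, NDUFS7 and the smaller calls were chosen after their values were seen. The members and lists were chosen with earlier results of these data known. Marker lists of cell types other than monocytes are not reported here.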

Additional observations from a re-analysis of the deposited data

How the results depend on the processing

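At an adjusted p under 0.01 the subunits called were 8 for CO2 averaged over states, 0 for CO2 in shNT cells with LPS, 7 for shNR4A2 against shNT and 7 for shNR4A3 against shNT. With library size only they were 22 for LPS and 1 for CO2 in shNT cells with LPS. With no filter they were 8 for CO2 averaged, 6 for CO2 in shNT cells with LPS, 1 for CO2 in shNR4A3 cells with LPS, 6 for shNR4A2 and 7 for shNR4A3. The causes were not tested. Counts in this section stand without the share of all genes called under the same setting. A change in the subunits and a change in all genes cannot be told apart from them. In TMM CPM in place of TPM the log2 ratios of summed level turned to 0.038 (subunits, CO2), 0.18 (subunits, LPS) and 0.18 (mitochondrial genes, LPS). With library size only the LPS values of NDUFAB1, NDUFV1, SDHC, UQCRFS1, COX5A and COX5B turned to -0.12, -0.073, -0.016, -0.031, -0.050 and -0.11. Leaving out each library gave 10 to 18 subunits for CO2 averaged, 41 to 49 for LPS, 12 to 17 for shNR4A2, 8 to 13 for shNR4A3 and 0 to 10 for CO2 in shNT cells with LPS, and 0 in every other CO2 comparison and interaction. With the replicate number as a block the counts were 16, 46, 19, 14 and 2 for the same 5 comparisons and 0 for the others. Within lines, the block gave 17 for CO2 and 46 for LPS. In basal shNR4A2 cells, where every same-numbered pair correlated above 0.1, the block changed no call. Of 2088 values of named subunits under the alternatives, 1932 kept their direction and side of the threshold, 150 lost the call and 6 changed sign. These subunits were all called in the main fit, and most of the values left out 1 library, so agreement was largely built in. By setting, library size only lost 9 calls and changed 6 signs. An adjusted p under 0.01 lost 15 calls and no filter lost 14.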
